A study of Mus musculus with 24 samples.

Results

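The genes of TGF-beta and BMP signalling were examined for Sox9 and H3K4me3 peaks in kidney cells after injury. The set was 46 named genes out of 21887 protein-coding genes, all 46 of which were found in RefSeq annotation of GRCm38.p6 (mm10). It was made up of 12 ligands, 11 receptors, 8 Smads, 7 extracellular antagonists and binding proteins, 4 nuclear corepressors and ubiquitin ligases, and 4 Id targets. A peak was counted at a gene end when its summit lay within 1000 bp of either end, and in the body window when it lay in the gene or within 10000 bp on each side.

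CUT&RUN uses an antibody to bring a nuclease to a chromatin protein, so that the DNA around it is cut free and sequenced. It was done on sorted cells of mouse kidney cortex and outer medulla. The mice were male, 9 to 12 weeks old and weighed 25 to 30 g. All carried Sox9IRES-CreERT2/+:R26RtdT/+, were given tamoxifen at bilateral ischaemia-reperfusion injury, and yielded tdTomato-positive cells, that is, cells with Sox9 activity around the time of injury and their descendants. Cells were taken 10 days or 48 h after injury, with 4 biological replicates each, and a pellet of about 100000 cells was fixed in 0.2% paraformaldehyde and divided into 3 aliquots for the Sox9 antibody, the H3K4me3 antibody (the positive control) and an input. No uninjured group was part of the design, and 1 Sox9 allele carried the Cre cassette in every group. The sample titles gave the times used here, because another label names day 10 also for samples titled 48 h.

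TGF-beta, activin and BMP ligands bind pairs of receptor kinases, which phosphorylate receptor Smads that enter the nucleus with Smad4. Inhibitory Smads, Smurf ubiquitin ligases and the corepressors Ski and SnoN limit the signal, while latent TGF-beta binding proteins hold TGF-beta in the matrix and antagonists such as noggin trap BMPs. In the injured kidney TGF-beta is known as a driver of fibrosis, and BMP7 as a factor that opposes it. The transcription factor Sox9 is induced by injury in tubule cells, and the histone mark H3K4me3 is found at active promoters.

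The 16 peak lists held 7724 to 85420 peaks for Sox9 and 25824 to 88511 for H3K4me3, and sequencing depth is unknown. Most peaks were the lowest that their list could hold: 92.5% to 97.8% of a list stood at exactly 1 step, the smallest height of that list, with all other heights at whole multiples of it. The chance of a peak in a window therefore moved with the length of a list, which was longest in 10-day replicate 1 for both antibodies. Genes with a strand had a peak more often at the 5′ than the 3′ end in 8 of 8 libraries of each antibody, at 7.35% against 3.19% for Sox9 and 13.7% against 5.06% for H3K4me3 (17492 genes). Among lists of marker genes, H3K4me3 end peaks were present in 25.0% of gene-library pairs of 8 kidney epithelium genes, 17.5% of 10 proximal tubule, 12.5% of 9 other nephron or duct, 10.4% of 12 injury or Sox9-lineage and 20.0% of 5 podocyte genes, against 17.3% over all genes. The shares were 14.1% for 8 endothelial, 12.5% for 7 stromal, 5.56% for 9 immune, 25.0% for 15 housekeeping and 11.7% for 15 genes silent outside their own, other tissues. Kidney epithelium genes thus had the same share as housekeeping genes when every peak was counted. Among peaks of 2 or more steps they had 0 of 64 pairs, against 16 of 120 for housekeeping genes (13.3%) and 2.94% over all genes. The injury and lineage genes had a lower share than all genes when every peak was counted. The peak lists do not by themselves show the labelled cell type. More cells with a protein at a site and more of it per cell cannot be told apart in such pools.

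The promoters at which peaks of several libraries met are shown first, because Sox9 and H3K4me3 peaks of several libraries touch them. Sequences were from RefSeq on GRCm38.p6 and run from 250 bases before to 50 bases after the start site, 5′ to 3′ on the gene's strand. The table held 40 promoters of 33 of the 46 genes. Sox9 peaks of at least 1 library touched 9 of the 40 (22.5%, against 15.4% of 32851 promoters in all). H3K4me3 peaks touched 17 of the 40 (42.5%, against 28.5%). Peaks in 3 or more of 16 libraries touched 5 promoters, of 5 genes. The share of all promoters touched in so many libraries is not given here, so these 5 are not set against others. Capitals mark bases inside peaks of 2 or more libraries, and 4 of the 5 are printed. At the other, of Smad5, only 2 bases were inside peaks of 2 libraries.
Smad3 (chr9:63757945-63758244, minus strand): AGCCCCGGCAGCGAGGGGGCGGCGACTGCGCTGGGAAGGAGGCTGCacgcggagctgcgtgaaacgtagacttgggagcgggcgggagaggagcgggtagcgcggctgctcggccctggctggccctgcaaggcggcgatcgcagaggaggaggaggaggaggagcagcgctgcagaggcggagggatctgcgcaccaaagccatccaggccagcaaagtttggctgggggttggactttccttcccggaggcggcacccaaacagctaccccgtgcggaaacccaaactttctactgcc
Acvr2a (chr2:48813859-48814158, plus strand): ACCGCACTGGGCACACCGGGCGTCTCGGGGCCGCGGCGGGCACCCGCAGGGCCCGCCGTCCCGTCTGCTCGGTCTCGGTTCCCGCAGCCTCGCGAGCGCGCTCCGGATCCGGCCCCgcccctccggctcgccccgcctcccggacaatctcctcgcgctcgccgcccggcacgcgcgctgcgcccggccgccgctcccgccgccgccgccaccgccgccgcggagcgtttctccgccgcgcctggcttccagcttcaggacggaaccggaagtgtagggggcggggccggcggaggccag
Acvr2b (chr9:119401928-119402227, plus strand): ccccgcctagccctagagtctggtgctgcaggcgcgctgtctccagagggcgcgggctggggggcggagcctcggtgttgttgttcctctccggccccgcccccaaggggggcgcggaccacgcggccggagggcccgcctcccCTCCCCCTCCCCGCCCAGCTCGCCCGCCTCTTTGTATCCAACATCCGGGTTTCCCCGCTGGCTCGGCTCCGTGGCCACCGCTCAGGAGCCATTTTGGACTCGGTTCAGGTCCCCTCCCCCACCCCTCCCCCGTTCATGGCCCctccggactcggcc
Acvr1 (chr2:58566779-58567078, minus strand): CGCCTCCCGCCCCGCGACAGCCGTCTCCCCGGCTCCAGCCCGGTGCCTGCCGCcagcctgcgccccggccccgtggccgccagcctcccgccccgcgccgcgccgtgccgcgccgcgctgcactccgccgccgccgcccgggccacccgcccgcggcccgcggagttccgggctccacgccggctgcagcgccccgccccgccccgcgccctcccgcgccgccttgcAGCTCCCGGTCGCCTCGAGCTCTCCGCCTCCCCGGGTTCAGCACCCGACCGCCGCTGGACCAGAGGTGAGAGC

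At Smad3 the capitals lie at the upstream edge of the window. Peaks there came from Sox9 10-day replicate 3 and 48 h replicate 3, and from H3K4me3 10-day replicates 1 and 3 and 48 h replicate 2. The Acvr2a promoter had peaks in Sox9 48 h replicate 2 and in H3K4me3 10-day replicate 4 and 48 h replicates 3 and 4, over its upstream edge. At Acvr2b, peaks of Sox9 10-day replicates 1 and 4 and of H3K4me3 10-day replicate 3 met over 142 bases around the start site. The Acvr1 promoter had Sox9 peaks in 10-day replicate 4 and 48 h replicate 4 at its upstream edge, and H3K4me3 peaks in 10-day replicate 3 and 48 h replicate 2 at the start site. At none of the 4 did more than 2 of 8 Sox9 libraries have a peak in the window.

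Motifs were searched on both strands of these windows. A Sox motif, spelled as ACAAAG or else as ACAATG or else as ACAATA, was found in 14 of 40 promoters of the set (35.0%), against 34.1% of 32851 promoters in all. ACAAAG alone was in 13 of 40 (32.5%, against 18.7% of all), ACAATG in 2 (5.00%, against 12.6%) and ACAATA in 1 (2.5%, against 9.13%). The Acvr2b promoter holds CTTTGT, the reverse complement of ACAAAG, from base -77 counted from the start site, inside the peaks of 3 libraries. Smad5 holds the same letters from base -97, outside every peak. The Smad motif CAGAC was in 21 of 40 (52.5%, against 49.6%), and GGCGCC, a motif of BMP response elements, in 13 of 40 (32.5%, against 11.9%). Some windows of the same gene overlap, so a site can count more than once, as CTTTGT does at Bmpr1b and GGCGCC at Smad5. How often this happens among all promoters was not counted. These matches describe letters in the window and not bound sites.

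Across the set, peaks at gene ends were more frequent than over all genes for both antibodies when every listed peak was counted. Sox9 peaks lay at the ends of 10, 2, 6 and 14 of the 46 genes in 10-day replicates 1 to 4, and of 1, 10, 6 and 7 at 48 h. H3K4me3 peaks lay at the ends of 21, 13, 17 and 10 genes in the 10-day replicates, and of 10, 10, 7 and 9 at 48 h. At 10 days the mean Sox9 share was 17.4% ± 11.2 (SD, n = 4), against 12.3% of all genes, and at 48 h it was 13.0% ± 8.13 (SD, n = 4), against 7.64%. For H3K4me3 it was 33.2% ± 10.4 (SD, n = 4) at 10 days, against 22.1% of all genes, and 19.6% ± 3.07 (SD, n = 4) at 48 h, against 12.5% of all genes. The share of the set exceeded that of all genes in 6 of 8 Sox9 libraries and 8 of 8 H3K4me3 libraries. The exceptions were Sox9 10-day replicate 2 and 48 h replicate 1, the shortest of the Sox9 lists. For Sox9 the direction turned when the same number of peaks, those lowest in p, was taken from every list. The set then had a Sox9 end peak in 1.09% at 10 days, against 1.31% of all genes, and in 1.09% at 48 h, against 1.75%, and was above all genes in 2 of 8 libraries. For H3K4me3 it had 8.70% at 10 days, against 4.78%, and 1.09% at 48 h, against 1.13%, and was above in 5 of 8. No test was made of these shares.

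Length mattered little at the ends and much in the body window. The 46 genes are long, with a median length of 43387 bp against 17169 bp for all genes. When all genes were weighted to the length classes of the set, their shares at the ends were 13.2% and 8.47% for Sox9 and 23.7% and 13.4% for H3K4me3, at 10 days and 48 h. In the body window a Sox9 peak was present in 62.5% ± 26.3 (SD, n = 4) of the set at 10 days, against 61.0% of genes of like length, and in 49.5% ± 18.98 (SD, n = 4) at 48 h, against 44.3%. H3K4me3 peaks were present in 79.9% ± 13.1 (SD, n = 4) at 10 days, against 75.4%, and in 71.2% ± 6.49 (SD, n = 4) at 48 h, against 63.6%. Over the body window the set was above genes of like length in 5 of 8 Sox9 and 7 of 8 H3K4me3 libraries. An H3K4me3 body peak in 8 of 8 libraries was present at 19.6% of the set, against 12.8% of all genes. The share of genes of like length was 21.8%. For Sox9 the shares were 6.52%, 3.48% and 6.18%.

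**Figure D1:**
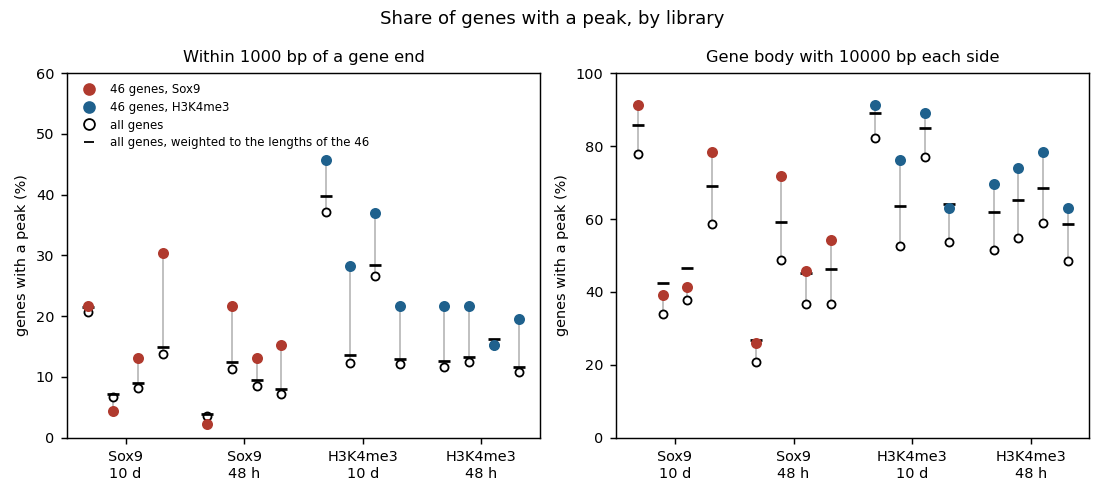
Percent of genes with a peak at a gene end (left) and in the body window (right), 1 column per library in replicate order 1 to 4. Filled points are the 46 genes, open circles all 21887 genes and dashes all genes weighted to the lengths of the 46. The gap at gene ends was widest in Sox9 10-day replicate 4 (30.4% against 13.8%) and small in Sox9 10-day replicate 1 (21.7% against 20.7%).

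Few genes of the set had an end peak in many libraries. An end peak in 3 or more of 8 libraries was found at 6 genes for Sox9 (13.0%, against 6.32% of all genes) and at 20 for H3K4me3 (43.5%, against 19.5%). The 6 Sox9 genes were Skil with 4 libraries and Smad6, Smad9, Bmp2, Inhbb and Smurf1 with 3 each. For H3K4me3 they were led by Acvr2a and Ski with 5 libraries and by Smad5, Bmpr2, Acvr1 and Nog with 4. The median gene of the set had an end peak in 1 Sox9 library, against 1 over all genes, and in 2 H3K4me3 libraries, against 1. No end peak was found at 13 genes for Sox9 and at 8 for H3K4me3, and at Tgfb3, Bmp5 and Inhba for neither antibody. At least 1 library had an end peak at 33 genes for Sox9 and 38 for H3K4me3. Over all 21887 genes the numbers were 11263 and 14959. In the 33 genes with a strand, 29 gene-library pairs had a Sox9 peak at the 5′ end and 8 at the 3′ end, and 64 and 12 an H3K4me3 peak, of 264 pairs each. The end windows of Tgfb1 (with B9d2), Bmp6 (Txndc5), Acvr1 (Upp2), Acvr2a (Orc4) and Chrd (Thpo) also hold another protein-coding gene, so peaks there cannot be assigned to either gene.

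**Figure D2:**
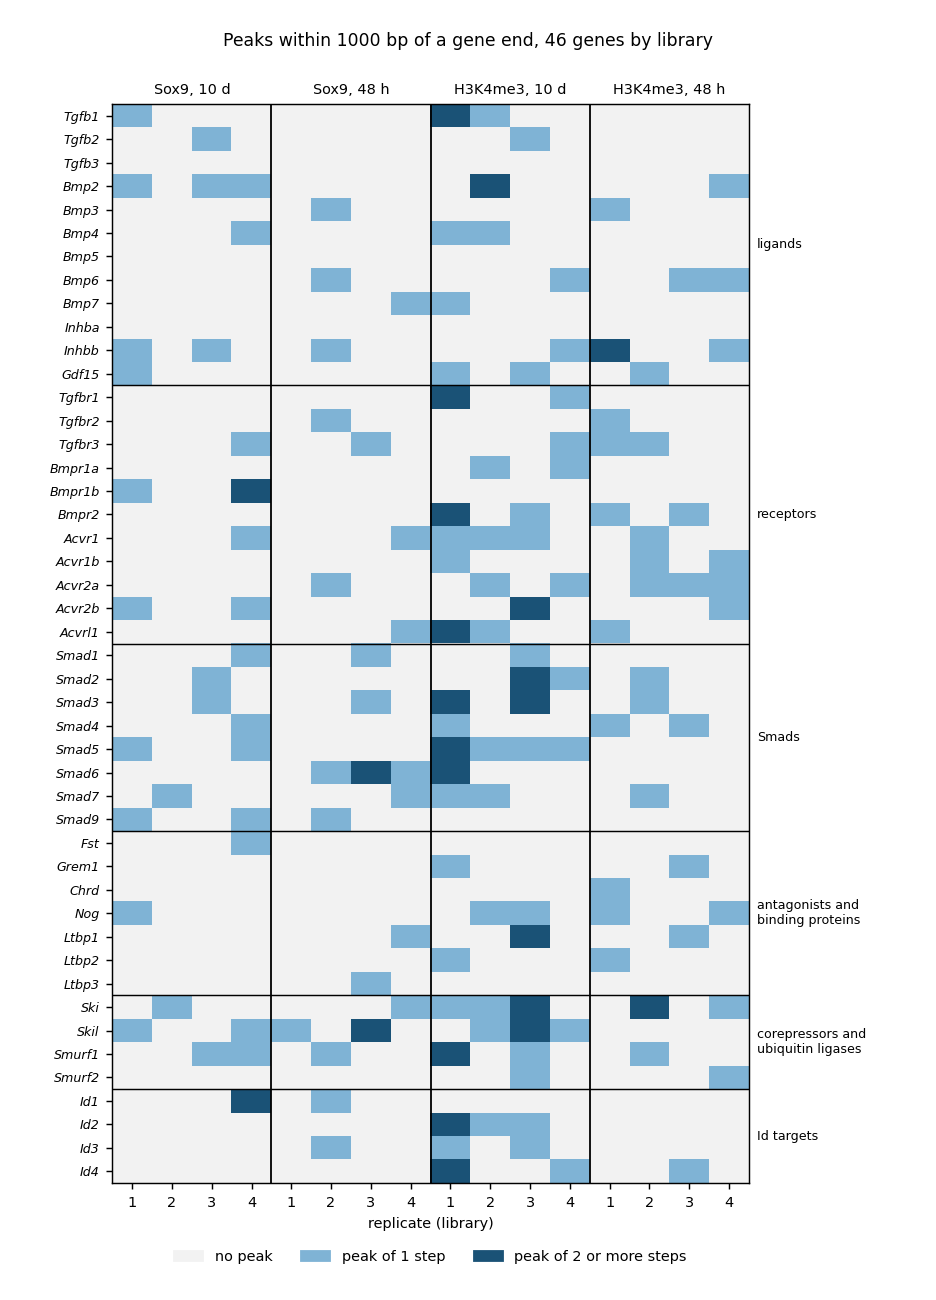
Peaks within 1000 bp of a gene end for the 46 genes (rows, by role) in the 16 libraries (columns). Light blue is a peak of 1 step, dark blue a peak of 2 or more steps and grey no peak. No row is filled across all 8 libraries of an antibody, and dark cells cluster in H3K4me3 10-day replicates 1 and 3.

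Ligand genes were close to the background. Sox9 peaks lay at their ends in 13 of 96 gene-library pairs (13.5%, against 10.7% of genes of like length) and H3K4me3 peaks in 18 of 96 (18.8%, against 18.5%). Tgfb1, the main profibrotic ligand, had an end peak in Sox9 10-day replicate 1 only, and in H3K4me3 10-day replicates 1 and 2 only. In its body window Tgfb1 had 4, 0, 2 and 1 Sox9 peaks at 10 days and 0, 1, 0 and 0 at 48 h, and 5, 2, 2 and 0 H3K4me3 peaks at 10 days and 1, 2, 1 and 0 at 48 h. Tgfb2 had an end peak in 10-day replicate 3 for Sox9 and for H3K4me3 and in no other library, and its body window had 4, 1, 2 and 1 Sox9 peaks at 10 days and 0, 0, 1 and 1 at 48 h. The 10-day and 48 h libraries overlapped for both genes.

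Bmp2, a BMP of bone and early development, had Sox9 end peaks in 10-day replicates 1, 3 and 4 and in none of 4 libraries at 48 h. Its H3K4me3 end peaks were in 10-day replicate 2 and 48 h replicate 4. Inhbb, the activin beta B subunit, had Sox9 end peaks in 10-day replicates 1 and 3 and 48 h replicate 2, and H3K4me3 end peaks in 10-day replicate 4 and 48 h replicates 1 and 4, all at its 5′ end. Bmp6 had H3K4me3 end peaks in 10-day replicate 4 and 48 h replicates 3 and 4, in the window it shares with Txndc5. Bmp7, the BMP of tubule epithelium, had a Sox9 end peak in 48 h replicate 4 and an H3K4me3 end peak in 10-day replicate 1. Its body window had H3K4me3 peaks in 8 of 8 libraries (5, 1, 6 and 3 at 10 days, 4, 2, 4 and 2 at 48 h) and Sox9 peaks in 5 of 8 (4, 0, 1 and 4, against 0, 1, 0 and 2). Gdf15, a stress-induced ligand, had a Sox9 end peak in 10-day replicate 1 and H3K4me3 end peaks in 10-day replicates 1 and 3 and 48 h replicate 2.

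Receptor genes had more H3K4me3 end peaks than genes of like length and about as many Sox9 end peaks. H3K4me3 end peaks were present in 29 of 88 gene-library pairs (33.0%, against 19.1% of genes of like length) and Sox9 end peaks in 11 of 88 (12.5%, against 11.3%). Of the 11 receptors 10 had an H3K4me3 end peak in at least 1 library, as did 14959 of all 21887 genes. The exception was Bmpr1b, which had Sox9 end peaks in 10-day replicates 1 and 4. Acvr2a, a receptor of activins and BMPs, had H3K4me3 end peaks in 10-day replicates 2 and 4 and 48 h replicates 2, 3 and 4. Bmpr2, the type II BMP receptor, had them in 10-day replicates 1 and 3 and 48 h replicates 1 and 3, and Acvr1, a type I receptor of BMPs, in 10-day replicates 1, 2 and 3 and 48 h replicate 2. Acvr1b, Acvrl1 and Tgfbr3 had H3K4me3 end peaks in 3 of 8 libraries each, in 1, 2 and 1 libraries at 10 days and 2, 1 and 2 at 48 h.

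The receptors of TGF-beta itself had few end peaks. Tgfbr1, its type I receptor, had H3K4me3 end peaks in 10-day replicates 1 and 4 and no Sox9 end peak. Tgfbr2, its type II receptor, had an end peak in Sox9 48 h replicate 2 and in H3K4me3 48 h replicate 1. In the body window Tgfbr2 had 2, 3, 2 and 3 H3K4me3 peaks at 10 days and 1, 3, 2 and 2 at 48 h, and 8, 0, 1 and 3 Sox9 peaks at 10 days and 0, 1, 1 and 1 at 48 h. The co-receptor gene Tgfbr3 had 7, 3, 8 and 4 H3K4me3 peaks at 10 days and 3, 4, 2 and 4 at 48 h. Its Sox9 peaks numbered 5, 2, 1 and 8 at 10 days and 0, 5, 4 and 2 at 48 h. Tgfbr2 and Tgfbr3 had an H3K4me3 peak in every library, as did 21.8% of all genes weighted to the lengths of the 46. Both genes, at 87669 and 183063 bp, exceed the median of the set (43387 bp). The share at their own lengths is not given here. Their 10-day and 48 h values overlapped.

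Smad genes had more Sox9 end peaks than genes of like length. Sox9 peaks lay at their ends in 16 of 64 gene-library pairs (25.0%, against 11.2%) and H3K4me3 peaks in 18 of 64 (28.1%, against 19.4%). Each of the 8 Smads had a Sox9 end peak in at least 1 library, as did 11263 of all 21887 genes. By time, the Sox9 share was 28.1% at 10 days and 21.9% at 48 h, and the H3K4me3 share 40.6% at 10 days and 15.6% at 48 h. Over all genes the shares were also lower at 48 h. They were 12.3% at 10 days and 7.64% at 48 h for Sox9, and 22.1% and 12.5% for H3K4me3. Smad3, the receptor Smad most tied to fibrosis, had Sox9 end peaks in 10-day replicate 3 and 48 h replicate 3, the promoter peaks shown above. Its body window had Sox9 peaks in 8 of 8 libraries (7, 1, 1 and 5 at 10 days, 3, 2, 4 and 1 at 48 h) and H3K4me3 peaks in 7 of 8 (10, 4, 11 and 0, against 3, 4, 1 and 1).

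Smad2, the other receptor Smad of TGF-beta, had a Sox9 end peak in 10-day replicate 3 and H3K4me3 end peaks in 10-day replicates 3 and 4 and 48 h replicate 2. The common partner Smad4 had a Sox9 end peak in 10-day replicate 4 and H3K4me3 end peaks in 10-day replicate 1 and 48 h replicates 1 and 3. Smad5, a BMP receptor Smad, had H3K4me3 end peaks in 10-day replicates 1 to 4 and in no 48 h library, with Sox9 end peaks in 10-day replicates 1 and 4. Smad9, another BMP receptor Smad, had Sox9 end peaks in 10-day replicates 1 and 4 and 48 h replicate 2 and no H3K4me3 end peak. Smad7, the inhibitory Smad induced by TGF-beta, had Sox9 end peaks in 10-day replicate 2 and 48 h replicate 4 and H3K4me3 end peaks in 10-day replicates 1 and 2 and 48 h replicate 2.

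**Figure D3:**
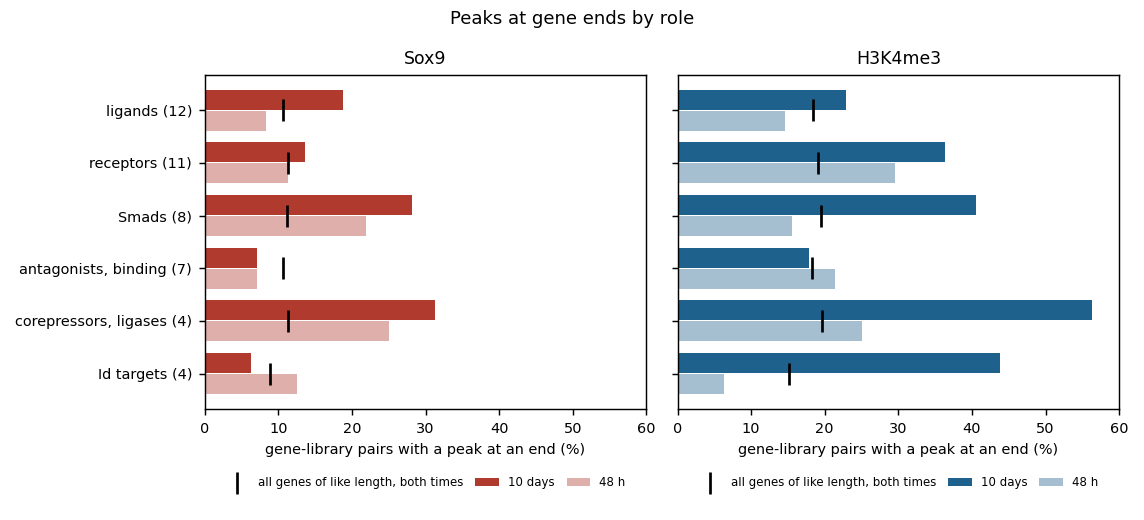
Percent of gene-library pairs with a peak within 1000 bp of a gene end, by role (number of genes in brackets), for Sox9 (left) and H3K4me3 (right). Dark bars are 10 days, pale bars 48 h, and the black mark is the percent over all genes weighted to the lengths of that role, over both times. Smads, corepressors and ligases and, narrowly, receptors lie above the mark in both Sox9 bars, and antagonists lie below it. The mark pools the times, while Sox9 shares over all genes were 12.3% at 10 days and 7.64% at 48 h. A bar's place against it is therefore not a comparison at its own time.

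Antagonists and binding proteins had few Sox9 end peaks, too few to set the role apart from genes of like length. Sox9 peaks lay at their ends in 4 of 56 gene-library pairs (7.14%, against 10.7% of genes of like length) and H3K4me3 peaks in 11 of 56 (19.6%, against 18.2%). In the body window the Sox9 share was not lower, at 27 of 56 pairs (48.2%, against 45.9%). Nog, which encodes the BMP antagonist noggin, had H3K4me3 end peaks in 10-day replicates 2 and 3 and 48 h replicates 1 and 4, and a Sox9 end peak in 10-day replicate 1. Chrd, which encodes the antagonist chordin, had an H3K4me3 peak in the body window in 8 of 8 libraries (1, 1, 2 and 3 at 10 days, 2, 1, 2 and 1 at 48 h), in a window shared with Polr2h and Thpo. Ltbp1, a latent TGF-beta binding protein of a 387033 bp gene, had 16, 3, 12 and 4 H3K4me3 peaks at 10 days and 1, 4, 5 and 1 at 48 h, and an H3K4me3 end peak of 2 steps in 10-day replicate 3. The body window of Ltbp2 had 3, 4, 3 and 3 Sox9 peaks at 10 days and 3, 2, 2 and 3 at 48 h. H3K4me3 peaks there numbered 11, 5, 11 and 3 at 10 days and 2, 2, 3 and 3 at 48 h.

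Nuclear corepressors and ubiquitin ligases had the highest shares of the 6 roles. Sox9 peaks lay at their ends in 9 of 32 gene-library pairs (28.1%, against 11.3% of genes of like length) and H3K4me3 peaks in 13 of 32 (40.6%, against 19.6%). Skil, which encodes the corepressor SnoN, had Sox9 end peaks in 10-day replicates 1 and 4 and 48 h replicates 1 and 3, and H3K4me3 end peaks in 10-day replicates 2, 3 and 4. Ski, a corepressor of Smads, had H3K4me3 end peaks in 10-day replicates 1, 2 and 3 and 48 h replicates 2 and 4, and Sox9 end peaks in 10-day replicate 2 and 48 h replicate 4. Smurf1, a ligase that targets BMP receptor Smads, had Sox9 end peaks in 10-day replicates 3 and 4 and 48 h replicate 2, at its 3′ end. Its H3K4me3 end peaks were in 10-day replicates 1 and 3 and 48 h replicate 2. In the body window Smurf1 had 9, 3, 5 and 4 H3K4me3 peaks at 10 days and 5, 3, 5 and 3 at 48 h. With 4 genes in this role, a single gene moves the share strongly.

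Id genes, which BMP signals induce through Smads, had H3K4me3 end peaks mainly in 10-day libraries. H3K4me3 end peaks were present in 7 of 16 gene-library pairs at 10 days and 1 of 16 at 48 h, and Sox9 end peaks in 1 of 16 at 10 days and 2 of 16 at 48 h. Id1 had Sox9 end peaks in 10-day replicate 4 and 48 h replicate 2 and no H3K4me3 end peak in any library. Id2 had H3K4me3 end peaks in 10-day replicates 1, 2 and 3 and none at 48 h, and Id4 in 10-day replicates 1 and 4 and 48 h replicate 3. H3K4me3 lists were longer at 10 days, and end peaks over all genes were also more frequent then (22.1%, against 12.5% at 48 h).

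Peaks above the lowest height were rare. In the body windows 22 of 490 Sox9 peaks of the set had 2 or more steps (4.49%, against 3.36% of all Sox9 peaks) and none had 3. Of 777 H3K4me3 peaks 50 had 2 or more steps (6.44%, against 4.68%), the highest at 6. At the gene ends a Sox9 peak of 2 or more steps was found in 4 gene-library pairs, at Bmpr1b and Id1 in 10-day replicate 4 and at Smad6 and Skil in 48 h replicate 3. For H3K4me3 there were 19 such pairs, 17 at 10 days and 2 at 48 h, of which 10 were in 10-day replicate 1 and 6 in 10-day replicate 3. They included Tgfbr1 and Smad5 at 3 steps in 10-day replicate 1, and Smad3 in 10-day replicates 1 and 3. Over all genes, end peaks of 2 or more steps were present at 4.93% at 10 days and 0.942% at 48 h for H3K4me3.

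Peaks of different libraries seldom fell on the same place. Of 464 merged Sox9 regions in the body windows 1 was present in 3 or more libraries (0.216%, against 0.496% of all Sox9 regions), and of 718 H3K4me3 regions 9 were (1.25%, against 0.983%), in 8 genes. The Sox9 region lay 6641 bp beyond the 5′ end of Ltbp2, which encodes a latent TGF-beta binding protein of elastic fibres, at chr12:84883199-84884425. The H3K4me3 region there was the most recurrent of the set. It was present in 8 of 8 libraries, with heights of 4, 1, 3 and 3 steps at 10 days and 3, 6, 2 and 3 steps at 48 h. Sox9 peaks were present in 10-day replicates 1 and 4 at 2 and 1 steps and in 48 h replicates 1 and 2 at 2 steps each. The lncRNA gene D030025P21Rik (chr12:84875802-84879755) lay between the region and the Ltbp2 end. Regions prone to artefacts were not filtered here.

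**Figure D4:**
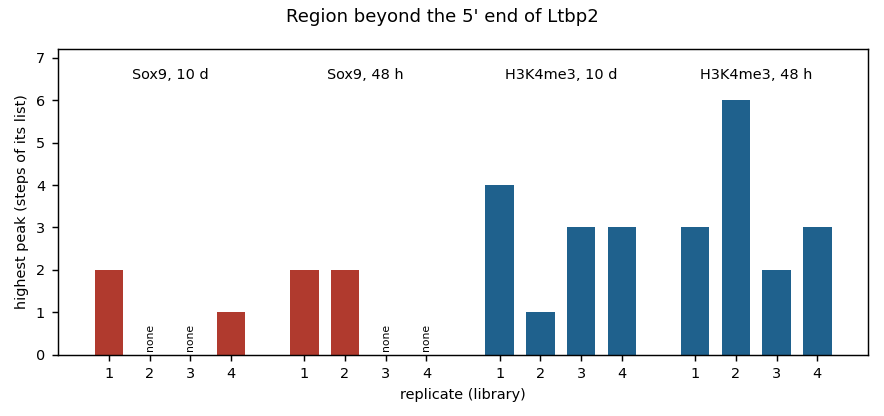
Highest peak, in steps of its own list, in the region beyond the 5′ end of Ltbp2 in each of the 16 libraries. H3K4me3 bars stand in 8 of 8 libraries at 1 to 6 steps, and Sox9 bars in 4 of 8 at 1 or 2 steps.

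The other H3K4me3 regions of 3 or more libraries had lower heights, of 1 or 2 steps. The Ski region, chr4:155221634-155222319, had peaks in 5 libraries just inside the 5′ end of the gene, with Sox9 peaks there in 2. The Id4 region, chr13:48261649-48262245, had peaks in 4 libraries and no Sox9 peak. Regions of 3 libraries lay 135 bp before the 5′ end of Acvr2a (chr2:48813693-48813974), inside Bmp4 (chr14:46387416-46387730), before the 5′ end of Bmp6 (chr13:38338120-38338580), beyond the 3′ end of Id3 (chr4:136147833-136148234), beyond the 3′ end of Ltbp2 (chr12:84772969-84773278) and at the lower-coordinate end of Smad7 (chr18:75367534-75367805).

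Sox9 and H3K4me3 aliquots of the same pellet rarely had peaks at the same place. Of 56 gene-pellet pairs with a Sox9 end peak, 15 also had an H3K4me3 end peak at that gene (26.8%, against 28.2% over all genes). Of 490 Sox9 peaks in the body windows 21 overlapped an H3K4me3 peak of their pellet by at least 1 bp (4.29%, against 2.67% of all Sox9 peaks).

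Between the times, 2 genes of the set separated for Sox9 in peaks per 10000 listed peaks of the body window. All 46 genes had a Sox9 peak in at least 1 library and entered the test over 20538 genes. Nog was higher at 10 days without overlap, as were 0.886% of genes tested, and Smad6 was lower at 10 days without overlap, as were 0.691%. At 1 of 46 genes in each direction, the counts are too small to set against these shares. Neither passed a two-sided exact permutation test of 4 against 4 libraries after Benjamini-Hochberg adjustment (p = 0.0286, the smallest the design allows, adjusted p = 1.0 each). No gene of 20538 passed adjustment, and 324 had an unadjusted p under 0.05 (1.58%).

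Nog had 4, 1, 3 and 1 Sox9 peaks in its window in 10-day replicates 1 to 4 and 0 in each of 4 libraries at 48 h. This came to 0.781 ± 0.654 peaks per 10000 (SD, n = 4) at 10 days and 0 at 48 h. Of the 9 peaks 8 lay in the flanks, 2013 to 8717 bp outside the gene, and 1 had 2 steps. Without the flanks Nog had a Sox9 peak in 1 library, and the separation was lost. In H3K4me3 the gene had 0, 2, 3 and 0 peaks at 10 days and 2, 1, 0 and 2 at 48 h, and the times overlapped.

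Smad6, the inhibitory Smad of BMP signals, had 8, 1, 0 and 3 Sox9 peaks at 10 days and 2, 7, 3 and 2 at 48 h. Per 10000 listed peaks Smad6 averaged 0.592 ± 0.410 at 10 days and 2.08 ± 0.687 at 48 h (SD, n = 4 each), a difference of -1.48. The separation rested on the scaling: peak numbers not divided by the length of the list overlapped. Sox9 end peaks at Smad6 were found in 0 of 4 libraries at 10 days and in replicates 2, 3 and 4 at 48 h. H3K4me3 peaks came to 1.00 ± 0.382 per 10000 at 10 days and 1.17 ± 0.357 at 48 h (SD, n = 4 each), and the times overlapped.

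For H3K4me3 no gene of the set separated the times in either direction in the body window, where 1.24% of 21175 genes were higher at 10 days without overlap and 0.77% lower. No gene of the set had an unadjusted exact permutation p under 0.05, against 425 of all genes tested (2.01%), and 0 of all genes passed adjustment. The median difference of the set was 0.0046 peaks per 10000, against 0.0019 over all genes, and for Sox9 -0.028 against 0.021. The change between the times in Sox9 minus H3K4me3 of the same pellet was 0.956 for Nog (exact permutation p = 0.0286, adjusted p = 1.0) and -1.31 for Smad6 (exact permutation p = 0.0571, adjusted p = 1.0).

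Between the antibodies, no gene of the set and none of 21559 genes passed a two-sided exact permutation test of 8 against 8 libraries after adjustment. Unadjusted, 2 genes of the set had a p under 0.05. Ski was higher with Sox9, as were 207 genes (0.96%), and Bmp4 lower, as were 841 (3.9%). Ski had 13, 3, 3 and 5 Sox9 peaks at 10 days and 1, 6, 3 and 3 at 48 h, and 10, 2, 8 and 5 H3K4me3 peaks at 10 days and 1, 2, 1 and 2 at 48 h. Its body window is shared with Morn1. Per 10000 listed peaks Ski averaged 1.72 ± 0.348 with Sox9 and 0.798 ± 0.431 with H3K4me3 (SD, n = 8 each, exact permutation p = 0.000932, adjusted p = 0.701), and was higher with Sox9 in 7 of 8 pellets. Within times the means were 1.63 with Sox9 and 1.10 with H3K4me3 at 10 days, with overlap, and 1.80 and 0.496 at 48 h, without overlap. At the gene ends, among peaks of 2 or more steps and at equal list lengths the direction turned (differences of -0.0295, -2.21 and -0.649). The last 2 differences are per 10000 peaks of the filtered lists and do not compare in size with the others. All Sox9 peaks in the Ski window stood at 1 step. Bmp4 averaged 0.0315 ± 0.0891 with Sox9 and 0.333 ± 0.298 with H3K4me3 (SD, n = 8 each, exact permutation p = 0.0256, adjusted p = 0.915), with 1 Sox9 peak in 8 libraries.

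**Figure D5:**
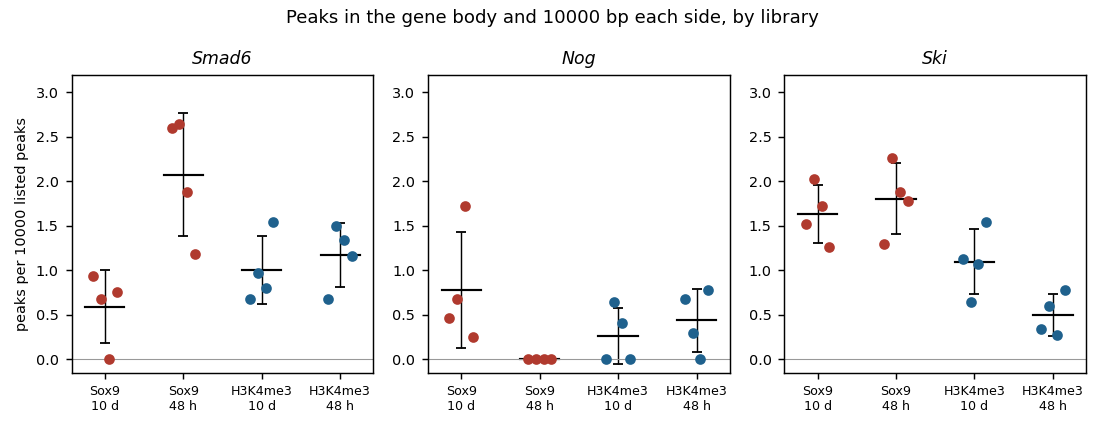
Peaks in the body window per 10000 listed peaks for Smad6, Nog and Ski, 1 point per library, with mean (line) and SD (bars) of 4 libraries. Smad6 and Nog separate the times for Sox9, and Ski points are higher with Sox9 than with H3K4me3 at 48 h without overlap.

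The other pathway genes and the target genes are given as lists of their own. Among 57 other pathway genes, Sox9 end peaks were present in 58 of 456 gene-library pairs (12.7%, against 10.6% of genes of like length) and H3K4me3 end peaks in 87 of 456 (19.1%, against 18.5%). Among 30 target genes of TGF-beta the shares were 27 of 240 for Sox9 (11.2%, against 10.6%) and 56 of 240 for H3K4me3 (23.3%, against 18.5%). No gene of either list separated the times in either antibody. Most end peaks in the pathway list were at Gdf7, a BMP ligand, in 9 of 16 libraries (2 and 1 Sox9, 4 and 2 H3K4me3 libraries at 10 days and 48 h), followed by Bmp1, a procollagen proteinase, and Dand5, a BMP and Nodal antagonist, in 6 each. Among targets they were at Snai1, a repressor of epithelial genes, in 7 libraries, and at Ccn1, a matricellular protein, and Col4a1, a basement membrane collagen, in 6 each.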

How the data were processed

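A peak list was deposited for each of the 16 antibody libraries; each was called against the input of its own pellet, going by the names of the deposited peaks. The 8 input samples were not analysed here as separate samples. The submitters' processing notes name MACS3, Bowtie, Bowtie2 and Partek 10 and the build mm10, and read filters and the peak threshold are not given in the sources used here. Each deposited list gives, per peak, a score (whole numbers, not used), a fold enrichment of pileup over background, which is a ratio computed by the authors, and −log10 p-value and −log10 q-value from the authors' caller. Fold and p were used within a list to solve the height of each peak, taking a Poisson tail and 1 added to pileup and background. In each list 99.994% or more of the peaks were solved, and 99.4% or more of these lay within 0.05 of a whole multiple of the smallest height, called 1 step. Depth is not given, so precision rests on 4 libraries per group.

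By their summits, peaks of the 19 autosomes, X and Y were assigned to 21887 protein-coding genes of RefSeq GRCm38.p6. Strand was known for 33 of the 46 genes, from the promoter table. Genes of like length are all genes weighted to the members' numbers in 10 length classes. Per gene, peaks in the body window per 10000 listed peaks were compared by two-sided exact permutation (70 arrangements of 4 against 4 libraries, 12870 of 8 against 8), with Benjamini-Hochberg adjustment over all genes with a peak. Times were called separate when their libraries did not overlap. Regions were merged peaks with 1 bp of overlap.

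The 46 genes, their roles, the other lists and the rule for named genes were chosen with earlier results of these data known. Library values are given for 11 set genes, for genes with end peaks in 3 or more libraries, body peaks in 8 of 8, peaks of 2 or more steps in 2 or more, or separate times, and for the 3 of each other list with end peaks in the most libraries. The split into 5′ and 3′ ends, the overlap within pellets, the change between times per pellet, the values within times and the promoter overlap were added after the data were seen.

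Sox9 and H3K4me3 libraries of the same time and number are aliquots of 1 pellet, per the labels' protocols. In deviations from the group mean over genes, the correlation of the aliquots was -0.00211 to 0.0404 at 10 days, and -0.0053 to 0.0156 at 48 h, so the pairing rests on the labels. Alternatives were other windows, unscaled peak numbers, a filter on q (−log10 of 5 or more), peaks of 2 or more steps, equal list lengths by p, a replicate block and leaving out libraries. One overlap of a gene end with a neighbouring gene is not reported here. Scripts were tested on simulated data. Figures were drawn with Matplotlib 3.10.9; SciPy 1.17.1, pandas 2.3.3 and NumPy 2.4.6 ran under Python 3.11.15.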

Additional observations from a re-analysis of the deposited data

Results flagged for a closer look

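In each Sox9 group 1 library stood apart in the share of the 46 genes with an end peak of 2 or more steps. At 10 days this was replicate 4, where 2 of 46 genes (4.348%) had such a peak, Bmpr1b and Id1, and the other libraries of the group had 0. At 48 h it was replicate 3, also with 2 of 46 (4.348%), Smad6 and Skil, and again 0 in the others. A gap between a lone library and 3 at 0 is flagged whatever its size. Over all genes such peaks were present at 0.0777% (48 h replicate 1) to 1.48% (10-day replicate 1) per Sox9 library. At such shares few or none of 46 genes have one in a library, so the flag does not mark these libraries as unusual. The cause was not tested.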

How the results depend on the processing

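Of 187 alternatives 143 kept direction and call, 31 moved a value, 8 lost a separation of the times and 5 turned a direction. The single Sox9 genes that separated the times, 1 higher and 1 lower at 10 days, became 0 and 0 at the gene ends, among peaks of 2 or more steps and at equal list lengths by p. Without the flanks the count higher became 0, and without scaling the count lower became 0. For H3K4me3 the count higher at 10 days, 0, became 1 at the gene ends. Leaving out each replicate gave 1 to 2 Sox9 genes higher (2 without 10-day replicate 3), 1 to 3 lower (3 without 48 h replicate 2), 0 to 3 H3K4me3 genes higher (3 without 10-day replicate 4 or 48 h replicate 4) and 0 to 1 lower. The shares of all genes called under these alternatives are not given here, so the counts are not read as results about the set. Nog and Smad6 kept their separation whichever library was left out. This follows from the rule, because leaving out a library can add a separation but cannot undo one.

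The excess of the set over all genes was 5.24 percentage points for Sox9 at gene ends and 3.6 to 6.32 without each library. It became 0.469 with 2 or more steps and turned to -0.446 at equal list lengths by p. For H3K4me3 it was 9.04, which became 2.23 with 2 or more steps and 1.94 at equal list lengths. In the body window it was 12.1 points for Sox9, which became 2.88 with 2 or more steps and 6.17 at equal list lengths. For H3K4me3 it was 15.7 points, which became 23.0 without the flanks, 3.07 with 2 or more steps and 5.37 at equal list lengths. Recurrent regions numbered 1 for Sox9 and 9 for H3K4me3, and 0 and 4 when summits had to lie within 100 bp, with 3 for H3K4me3 in 4 or more libraries. The excess of Sox9 peaks of 2 or more steps, 1.13 points over all Sox9 peaks, turned to -0.43 at 3 or more steps. The Ski difference of 0.92 peaks per 10000 became -0.0295 at the gene ends, -2.21 with 2 or more steps and -0.649 at equal list lengths. The value with 2 or more steps is per 10000 such peaks and rests on H3K4me3 peaks in 3 libraries. That at equal list lengths is per 10000 peaks of the cut lists, so neither compares in size with 0.92. The cause was not tested.

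With the replicate number as a block, genes of the set with all 4 pairs in the same direction numbered 1 higher and 2 lower for Sox9. For H3K4me3 they numbered 3 higher and 1 lower. The shares of all genes under this rule are not given here, so these counts too are not read as results about the set. Deviations of same-numbered 10-day and 48 h libraries correlated between -0.012 and 0.0143 for Sox9 and between -0.00511 and 0.0251 for H3K4me3, so these numbers do not pair the times. With pellets as the block no gene passed between the antibodies. The smallest p of that exact sign-flip test on 8 pairs is 0.00781. Adjustment over 21559 genes therefore left little room for any gene to pass.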
